A study of Homo sapiens with 6 samples.

Results

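The 10 genes described here encode matrix-degrading enzymes and their inhibitors. They were the rows of the deposited count tables whose symbol was MMP1, MMP2, MMP3, MMP14, MMP15, MMP19 or MMP24, which are matrix metalloproteinases (MMPs), or TIMP1, TIMP2 or TIMP3, which are tissue inhibitors of metalloproteinases (TIMPs). All 10 were found among the 16907 genes of the tables, and all 10 passed the filter on low counts, which required a total of at least 10 counts over the 6 libraries and kept 14853 genes. The series measured RNA in LX-2 cells, a human line of hepatic stellate origin. Stellate cells become the collagen-producing myofibroblasts of the injured liver. Cells received a non-targeting small interfering RNA (siControl) or an siRNA against OGT (siOGT), in both cases at 20 nM and for 72 h by the same transfection reagent, with 3 biological replicates a group. OGT is the enzyme that puts a single N-acetylglucosamine on serines and threonines of nuclear and cytoplasmic proteins. Per the study's resource list, siOGT was a pool of siRNAs and siControl a negative control from another supplier, so effects of the reagent and of OGT loss cannot be told apart from these libraries. All results come from 1 cell line in culture.

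MMPs are zinc-dependent enzymes made as inactive precursors, which cut collagens, other matrix proteins and many cell-surface proteins once their propeptide has been removed. TIMPs bind to the active site of MMPs and block it. In the liver, stellate cells are a main source of both, and the balance between them is studied because it bears on whether scar matrix persists or is cleared. RNA levels say nothing directly about how much enzyme is secreted, activated or inhibited.

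Levels are given as CPM, the counts of a gene scaled to the library total after adjustment by TMM factors. OGT, measured to check the labels, went from 145 ± 28.9 CPM (SD, n = 3) in siControl to 32.0 ± 6.94 CPM in siOGT, and each siOGT library kept between 19.7% and 24.1% of the level in its partner. Libraries held 25996770 to 27966801 expected counts each. The line had RNA of the mesenchymal markers VIM (at least 3027 CPM in every library), COL1A1 and PDGFRB, whereas the stellate marker DES stayed at or below 0.224 CPM and ACTA2 between 4.83 and 9.69 CPM. Markers of the stellate and mesenchymal list summed to 6231 to 7415 CPM in siControl and 5442 to 6453 CPM in siOGT, and 4 of its 8 genes fell (COL1A1, COL1A2, PDGFRB and THY1), beside 12.7% of all genes tested called lower. Of the markers of other liver cells, ALB of hepatocytes stayed at or below 0.111 CPM, PTPRC of leukocytes at or below 0.855 CPM and EPCAM of bile duct cells at or below 0.108 CPM. Other genes of the same lists were higher, among them CYP2E1 of hepatocytes (2.99 to 9.18 CPM), CD14 of monocytes (4.48 to 7.78 CPM), KRT7 (4.67 to 8.05 CPM) and SOX9 (83.1 to 122 CPM) of bile duct cells, and VWF (0.666 to 4.01 CPM) and CDH5 (0.963 to 2.90 CPM) of endothelial cells. The summed leukocyte list ran from 131 to 162 CPM in siControl and from 176 to 208 CPM in siOGT, mostly through the lysosomal gene CD68. In bulk RNA, fewer cells of a type and less RNA per cell cannot be told apart. The part of these markers in the results given here was not tested.

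The promoter sequences are given first, since TIMP3 was, of the 3 members called, the one whose call held under all alternatives run, and TIMP1 is a close relative that passed no test. RefSeq promoters (GRCh38.p14, 250 bases before the transcription start to 50 after it) were at hand for 5 of the 10 members, namely MMP14, MMP15, MMP24, TIMP1 and TIMP3. The 100 bases before each start are printed 5′ to 3′ on the plus strand, on which both genes lie, at chr22:32801605-32801704 for TIMP3 and chrX:47582336-47582435 for TIMP1. Capitals mark matches on either strand to GGGCGG, a GC box bound by SP1 and KLF factors (read as CCGCCC on the other strand), and to CAGGAA, a core bound by ETS factors. No 2 matches overlapped.
TIMP3: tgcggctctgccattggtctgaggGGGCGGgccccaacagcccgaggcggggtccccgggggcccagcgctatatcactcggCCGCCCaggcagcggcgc
TIMP1: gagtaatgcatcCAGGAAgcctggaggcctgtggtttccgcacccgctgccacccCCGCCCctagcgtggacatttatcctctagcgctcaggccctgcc

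In its 300-base window, TIMP3 held 5 matches to GGGCGG, of which those 76 and 18 bases before the start are in the printed stretch. TIMP1 held 2, at 135 and 45 bases before the start, and a match to CAGGAA at 88 bases. MMP15, which was not called, also held 5 matches to GGGCGG, and MMP24 and MMP14, also not called, held 3 and 1. All 5 promoters held at least 1 GGGCGG, which 45.0% of all 35116 promoters in the table also did, and MMP14, MMP15 and TIMP1 held a CAGGAA, found in 28.4% of them. None of the 5 windows held an exact match to the AP-1 motif TGANTCA (7.71% of all promoters), the TEAD motif CATTCC (14.0%) or TATAAA (11.5%). Near matches were not sought, so variant sites may be present. TIMP3 was 72.7% G and C in this window and TIMP1 65.0%, against a median of 58.7% over all promoters. MMP24 was at 80.0%, MMP15 at 75.3% and MMP14 at 55.0%. Neither the number of GGGCGG matches nor the content of G and C was particular to TIMP3. These are matches of letters only.

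Of the 10 members, MMP1 rose in siOGT, MMP2 and TIMP3 fell, and the other 7 did not pass the test. Each gene was tested in 1 fit over all 14853 genes (edgeR's quasi-likelihood test, with the replicate pair as a block), and a gene was called where the Benjamini-Hochberg adjusted p was at most 0.05. That fit called 25.4% of all genes, 12.7% as higher and 12.7% as lower, so 3 of 10 members is close to the share of all genes. The median log2 fold change of the members was -0.083, beside 0.007 for all genes tested. TIMP3 and MMP3 were the members whose siControl and siOGT libraries did not overlap, and 23.9% of all genes tested had such groups. MMP3 passed the filter on low counts only through its siOGT libraries. Without the replicate block, TIMP3 alone was called, under edgeR (which then called 0.875% of all genes) and DESeq2 (5.72%). DESeq2 with the block called the same 3 members and 16.3% of all genes.

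**Figure D1:**
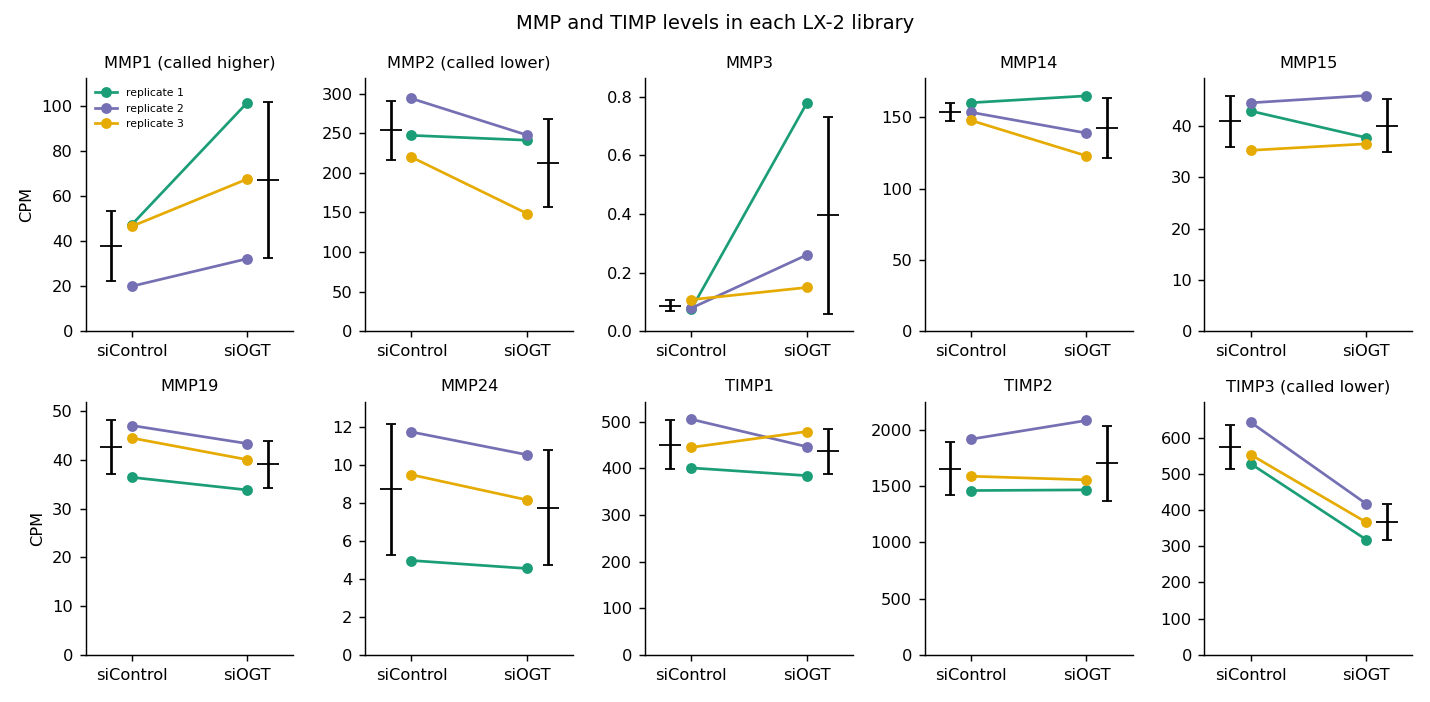
Level of each member in each library, in CPM on linear axes that start at 0. Each line joins the siControl and siOGT library of 1 replicate number, and the black bars beside them give the mean ± SD of each group (n = 3). MMP1 goes up and TIMP3 goes down along all 3 lines, and only TIMP3 among the members above 1 CPM has groups that do not overlap.

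MMP1 is the interstitial collagenase, which makes the first cut in fibrillar collagens of types I and III. It lies on chromosome 11 (102789401 to 102798160, minus strand, hg38). The siControl libraries of replicates 1, 2 and 3 had 47.3, 20.0 and 46.5 CPM of MMP1, and the siOGT libraries 102, 32.2 and 67.6 CPM. Replicate 2 was low in both groups, and because of this the groups overlap although MMP1 was higher in siOGT in 3 of 3 pairs. Within the pairs the siOGT level was 215%, 161% and 145% of the siControl level. MMP1 therefore rose 1.72-fold (95% interval 1.51 to 1.97), a log2 fold change of 0.78 (SE 0.090, adjusted p = 1.170e-05, edgeR). The call rests on the pairing of the libraries, since without the block the adjusted p was 0.311 in edgeR and 0.460 in DESeq2, with a log2 fold change of 0.82 in both.

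MMP3, or stromelysin-1, cuts a broad range of matrix proteins and can activate the precursor of MMP1. It lies beside MMP1 on chromosome 11 (102835801 to 102843609, minus strand) and was under 1 CPM in every library, far below MMP1. The siControl libraries held 2, 2 and 3 counts of MMP3 in all, and the siOGT libraries 21, 7 and 4. All siOGT values exceeded all siControl values, but the highest came from a library of replicate 1 and the gap in replicate 3 was 1 count. The summed counts gave a ratio of 4.60 (95% interval 2.0 to 12.4, exact, covering counting error only). MMP3 reached the filter's total of 10 only through siOGT, with 7 counts in siControl and 32 in siOGT. The gap between the groups and this interval therefore describe the counts and support no call. The fitted log2 fold change was 1.99 (SE 0.81) and did not pass the test (adjusted p = 0.0801, edgeR). It was 1.07 (adjusted p = 0.596) without replicate 1 and 2.65 (adjusted p = 0.0374) without replicate 3, so the call depended on which pair was in the fit.

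MMP2, gelatinase A, degrades denatured collagen and the type IV collagen of basement membranes. Its gene is on chromosome 16 (55389700 to 55506691, plus strand). The siControl libraries had 247, 294 and 220 CPM of MMP2 and the siOGT libraries 241, 248 and 149 CPM. The groups overlap, and the 3 pairs differed widely, with the siOGT level at 97.5%, 84.3% and 67.6% of its partner. MMP2 fell to a fold of 0.823 (95% interval 0.730 to 0.927), a log2 fold change of -0.28 (SE 0.082, adjusted p = 0.0177, edgeR). Replicate 3 decided the call, because without that pair the log2 fold change was -0.15 (adjusted p = 0.123), and without the block the adjusted p was 0.498 in edgeR and 0.465 in DESeq2.

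The membrane-type MMPs stay anchored at the cell surface. MMP14 (chromosome 14, 22836560 to 22849041, plus strand) is the main activator of the MMP2 precursor, together with TIMP2, and also cuts fibrillar collagen. It had 160, 154 and 148 CPM in siControl and 165, 139 and 123 CPM in siOGT, so that it was higher in 1 pair and lower in 2. The log2 fold change of MMP14 was -0.12, with a 95% interval from -0.27 to 0.03 (adjusted p = 0.221, edgeR). MMP15 (chromosome 16, 58025754 to 58046901, plus strand) had 42.9, 44.5 and 35.3 CPM in siControl and 37.7, 45.9 and 36.5 CPM in siOGT. Its log2 fold change was -0.03 (95% interval -0.19 to 0.13), and its groups overlapped over almost their whole range. MMP24 (chromosome 20, 35226690 to 35276998, plus strand) was the scarcest of the membrane-type members, with 4.98, 11.8 and 9.49 CPM in siControl and 4.55, 10.6 and 8.17 CPM in siOGT. It was lower in 3 of 3 pairs by a log2 fold change of -0.17, with an interval of -0.41 to 0.08 that includes 0 (adjusted p = 0.317, edgeR).

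MMP24 shares 806 of its exonic bases (18.4%) with MMP24OS, a gene on the opposite strand. MMP24OS was far more abundant, at 136 to 213 CPM in siControl and 105 to 159 CPM in siOGT, and it fell by 0.33 on the log2 scale (adjusted p = 0.00177, edgeR). The counting was strand-specific per the study's methods, and any reads that crossed between the 2 genes were not tested.

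MMP19 (chromosome 12, 55835433 to 55842966, minus strand) is a secreted MMP that cuts basement membrane proteins. It had 36.4, 47.1 and 44.5 CPM in siControl and 33.8, 43.4 and 40.1 CPM in siOGT. As with MMP24, the siOGT library was the lower in 3 of 3 pairs, at 92.9%, 92.2% and 90.04% of its partner. The log2 fold change of -0.13 (95% interval -0.27 to 0.02) did not pass the test (adjusted p = 0.204, edgeR). MMP19 shares 821 exonic bases (17.6%) with the pseudogene TMEM198B on the opposite strand, and MMP1 shares 223 (8.15%) with WTAPP1.

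TIMP3 is the inhibitor that binds to the matrix itself and blocks a wide range of enzymes, including ADAM17 and aggrecan-cutting ADAMTS proteases. Its gene (chromosome 22, 32801705 to 32863041, plus strand) lies inside SYN3 on the opposite strand, with 0 exonic bases in common. The siControl libraries had 528, 642 and 553 CPM of TIMP3 and the siOGT libraries 318, 417 and 366 CPM. Every siOGT library was below every siControl library, and the pairs lay close together, at 60.3%, 65.0% and 66.3% of their partners. TIMP3 fell to a fold of 0.638 (95% interval 0.579 to 0.703), a log2 fold change of -0.65 (SE 0.066, adjusted p = 3.914e-06, edgeR). It was called under all 10 alternatives run, with log2 fold changes between -0.68 and -0.61, and its largest adjusted p was 0.0472, from edgeR without the block.

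The other 2 inhibitors did not pass the test and are bounded closely by their intervals. TIMP1 (X chromosome, 47582408 to 47586789, plus strand), an inducible and secreted inhibitor often used as a marker of fibrosis, had 401, 505 and 445 CPM in siControl and 384, 446 and 479 CPM in siOGT. Its log2 fold change was -0.04, with a 95% interval of -0.19 to 0.10 (adjusted p = 0.698, edgeR). TIMP2 (chromosome 17, 78852977 to 78925387, minus strand), which both inhibits MMP2 and helps MMP14 to activate it, had 1459, 1915 and 1586 CPM in siControl and 1465, 2081 and 1554 CPM in siOGT. The log2 fold change of TIMP2 was 0.03, with a 95% interval of -0.11 to 0.18 (adjusted p = 0.778, edgeR). TIMP1, like TIMP3, lies inside a synapsin gene, SYN1, which had 1.15 to 1.46 CPM in siControl and 1.85 to 2.08 CPM in siOGT and was not called (adjusted p = 0.119, edgeR). SYN3 stayed under 1 CPM. The intervals of TIMP1 and TIMP2 do not reach the log2 fold change of TIMP3.

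**Figure D2:**
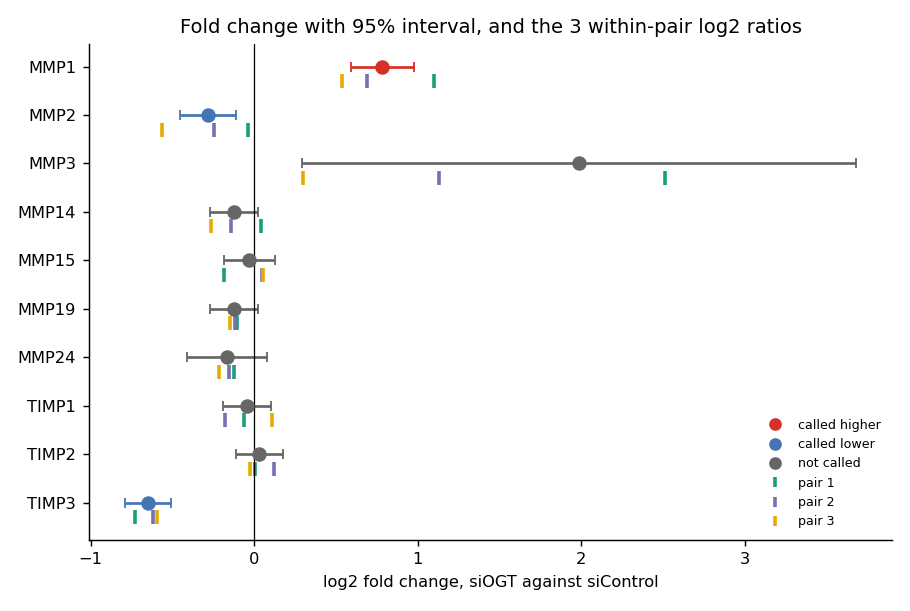
Log2 fold change of siOGT against siControl for each member, with the bar giving the unadjusted 95% interval from edgeR and the coloured ticks under it the log2 ratios of the 3 replicate pairs. MMP1 (0.78) lies to the right of 0, and TIMP3 (-0.65) and MMP2 (-0.28) lie to the left. The interval of MMP3 is the widest, and its adjusted p of 0.0801 did not pass.

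How the members varied under other settings is shown by the plot of fold changes by setting. MMP1 kept its sign under all 10 alternatives, between 0.61 and 0.92, and so did MMP2, between -0.41 and -0.15. MMP14, MMP19 and MMP24 were negative under all 10 and called under 0. MMP15, TIMP1 and TIMP2 each changed sign once when a replicate pair was left out.

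**Figure D3:**
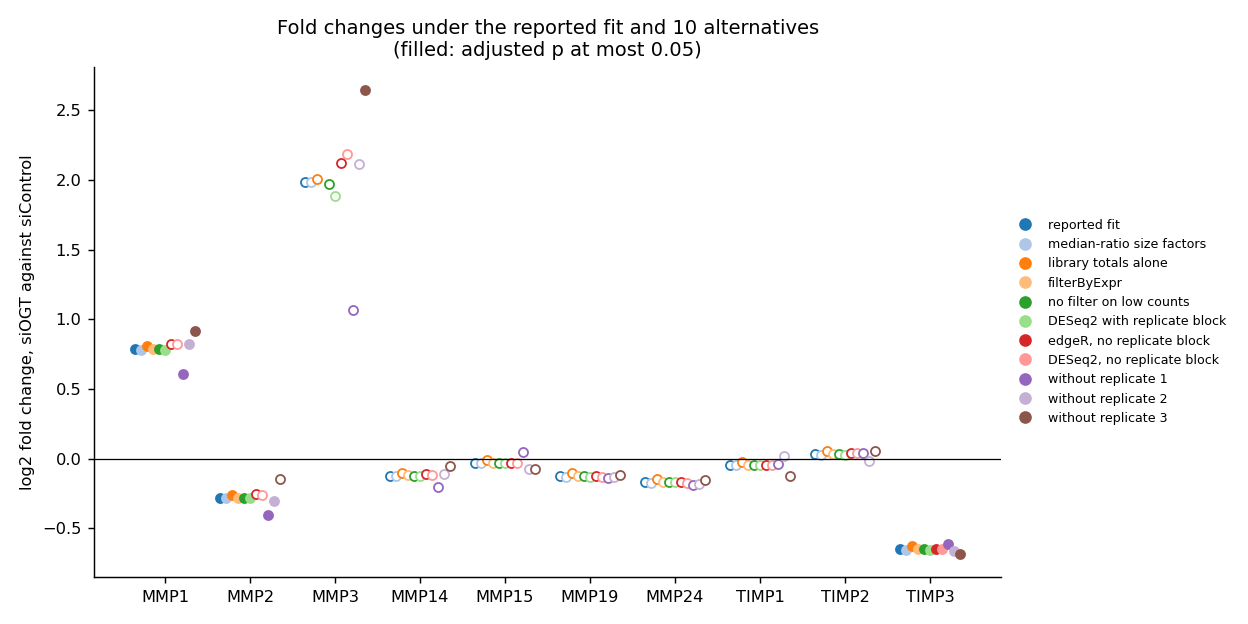
Log2 fold change of each member in the fit reported and under the 10 alternatives. Filled points passed an adjusted p of 0.05 and hollow points did not or had none. TIMP3 is filled throughout, between -0.68 and -0.61, while MMP1 and MMP2 turn hollow without the replicate block and MMP2 also without replicate 3.

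To compare levels between genes, CPM were divided by the kilobases of exonic sequence of each gene. In siControl, TIMP1 came first (311 ± 36.2 CPM per kb, SD, n = 3), followed by TIMP2 (266 ± 37.9), and their ranges overlapped. TIMP3 followed at 125 ± 13.1 CPM per kb, apart from both. MMP2 was the most abundant enzyme (53.9 ± 7.96 CPM per kb), then MMP14 (33.3 ± 1.35), and both stood apart from their neighbours. MMP1 (13.9 ± 5.69) did not differ beyond the spread from MMP15 (9.66 ± 1.17), nor MMP15 from MMP19 (9.13 ± 1.19). Clearly below them, MMP24 had 2.0 ± 0.79 CPM per kb and MMP3 0.0469 ± 0.00964. Inhibitor RNA thus exceeded enzyme RNA per length in this line, with the TIMPs summing to 703 ± 86.9 CPM per kb and the MMPs to 122 ± 5.45. With the length of the longest transcript instead, 6 of the 10 kept their place, as TIMP2 passed TIMP1 and MMP19 passed MMP15.

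The 7 MMPs summed to 539, 571 and 504 CPM in siControl and 585, 519 and 424 CPM in siOGT, which is higher in 1 pair and lower in 2. The 3 TIMPs summed to 2388, 3062 and 2584 CPM in siControl and 2167, 2944 and 2399 CPM in siOGT, lower in 3 of 3 pairs. Both sums overlap between the groups. The make-up of each sum, as a share of CPM per kb, moved with the called genes. MMP1 took 14.0%, 5.77% and 14.7% of the MMP sum in siControl and 26.2%, 10.03% and 24.2% in siOGT. MMP2 took 42.5%, 49.5% and 40.4% in siControl and 36.2%, 44.9% and 31.0% in siOGT. MMP14 stayed between 25.2% and 28.0% in all 6 libraries. TIMP3 took 17.5% to 18.3% of the TIMP sum in siControl and 12.1% to 12.4% in siOGT, ranges that were narrow and apart. These shares describe the values above and were not tested.

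**Figure D4:**
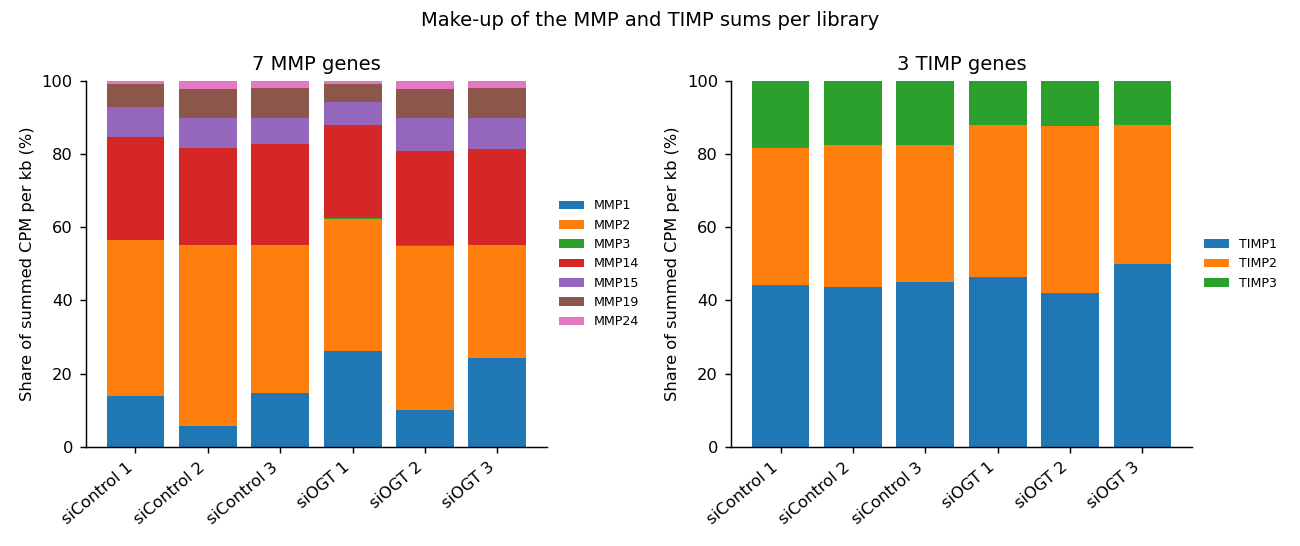
Share of each member in the summed CPM per kb of the 7 MMPs and of the 3 TIMPs, in percent, for each of the 6 libraries. The TIMP3 share is 17.5% to 18.3% in siControl and 12.1% to 12.4% in siOGT, and the MMP1 share is higher in siOGT in each pair.

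The ratio of MMP1 to each inhibitor was computed after the values had been seen and serves as a description. Within pairs 1, 2 and 3, the ratio of MMP1 to TIMP1 was 2.24, 1.82 and 1.35 times as high in siOGT as in siControl. Against TIMP2 it was 2.14, 1.48 and 1.48 times as high. Against TIMP3 it was 3.56, 2.48 and 2.19 times as high, as the 2 genes moved in opposite directions. All these ratios concern RNA.

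Genes whose 3 within-pair log2 ratios were most like those of MMP1 and TIMP3 were sought among 12372 genes, by the root mean square difference. Among the 3 closest to MMP1 were KLF2 (difference 0.079 on the log2 scale), a flow-responsive transcription factor, and BIRC3 (0.084), an inhibitor of apoptosis. Closest to TIMP3 were TRIM62 (0.019), ARHGEF25 (0.020) and CDKN2C (0.021), an inhibitor of cyclin-dependent kinases. The likeness rests on 3 pairs and says nothing of shared control.

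The 8 lists of related genes held 63 genes found in the tables, of which 55 were tested and 20 called, 12 as higher and 8 as lower (36.4%, beside 25.4% of all genes). Their median log2 fold change was 0.048. Of the other MMPs and TIMP4, 7 were tested and MMP17, a membrane-type MMP, fell (log2 fold change -0.34, adjusted p = 0.0317, edgeR). Its call ended in the blocked DESeq2 fit (adjusted p = 0.153), and in edgeR without replicate 1 (adjusted p = 0.242) or without replicate 3 (adjusted p = 0.104). These other MMPs summed to at most 25.0 CPM in any library.

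The plasminogen system makes the protease plasmin, which can remove the propeptide of several MMPs. SERPINB2, an inhibitor of the plasminogen activators, had 105, 81.7 and 162 CPM in siControl and 252, 152 and 270 CPM in siOGT. It rose 1.95-fold (log2 fold change 0.96, adjusted p = 6.577e-07, edgeR), and its groups overlapped. SERPINE2, also an inhibitor of plasminogen activators and thrombin, rose by 0.45 on the log2 scale (adjusted p = 1.365e-04, edgeR). The activators PLAU (urokinase, log2 fold change -0.40, adjusted p = 0.00162) and PLAT (tissue plasminogen activator, -0.35, adjusted p = 0.00110, edgeR) both fell. SERPINB2 and SERPINE2 were thus higher and both activators lower, in 3 of 3 pairs each. Of the 7 genes of this list tested, 5 were called, 3 higher and 2 lower, beside 25.4% of all genes. PLAUR was not called (log2 fold change 0.03). Without the block, the calls of SERPINB2, SERPINE2, PLAU and PLAT were all lost, in edgeR and in DESeq2. For SERPINB2 the adjusted p was then 0.109 in edgeR and 0.1105 in DESeq2.

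Among proprotein convertases, which remove the propeptide of membrane-type MMPs, PCSK7 rose by 0.43 on the log2 scale (adjusted p = 2.428e-04, edgeR), while FURIN had a value of 0.04 and was not called. PCSK7 was the 1 called of 3 convertases tested, beside 12.7% of all genes called higher. Of 6 other inhibitors and surface regulators, LRP1, the receptor that takes up MMP and TIMP complexes from outside the cell, fell. LRP1 had 427, 403 and 392 CPM in siControl and 290, 341 and 243 CPM in siOGT, groups that did not overlap (log2 fold change -0.49, adjusted p = 2.124e-04, edgeR). Over all genes tested, 12.7% were called lower and 23.9% had groups that did not overlap. RECK, a membrane-anchored MMP inhibitor, had a log2 fold change of -0.08 (95% interval -0.33 to 0.18).

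Of 8 ADAM proteases, ADAM12 rose (log2 fold change 0.31, adjusted p = 0.00265, edgeR). ADAM17, a sheddase that TIMP3 inhibits, had a log2 fold change of 0.15 with an interval that just includes 0 (-0.003 to 0.302, adjusted p = 0.145, edgeR). Of 13 ADAMTS proteases, 3 rose and 4 fell, beside 12.7% of all genes in each direction. ADAMTS12 (0.43 on the log2 scale) and ADAMTS2 (0.45) were higher, and the aggrecanase ADAMTS4 (-0.48) and ADAMTS14 (-0.45) were lower. The calls of ADAMTS4 and ADAMTS14 were lost under 7 and 5 of the 10 alternatives, and that of ADAMTS2 under 3, including DESeq2 with the block (adjusted p = 0.0661). All 20 calls of these lists were lost in edgeR without the block, where 11 of the 55 genes had an unadjusted p under 0.05, and DESeq2 without the block called 4.

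**Figure D5:**
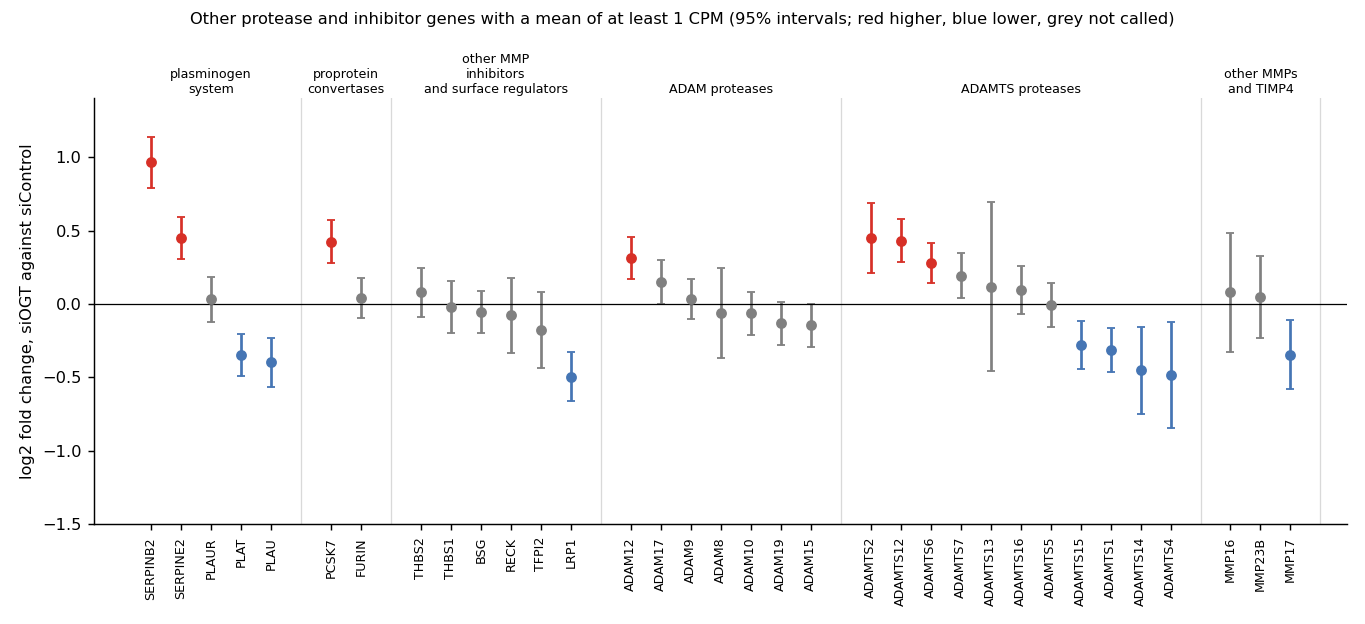
Log2 fold change of siOGT against siControl for genes of the protease and inhibitor lists with a mean of at least 1 CPM, grouped by list, with unadjusted 95% intervals from edgeR. Red marks genes called higher, blue genes called lower and grey the rest, and in the plasminogen group SERPINB2 and SERPINE2 lie above 0 and PLAT and PLAU below it.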

How the data were processed

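RNA was sequenced from 3 siControl and 3 siOGT cultures of LX-2 cells. Per the study's methods and the submitters' processing notes, polyadenylated RNA was enriched with oligo-dT, and paired-end reads were aligned to hg38 with Bowtie2 2.3.5.1 and counted with RSEM 1.3.1 in a strand-specific mode. The values that the authors deposited are expected counts per gene symbol, without normalization, in which a read shared by several genes is divided between them. All 60 values of the 10 members were whole numbers. A further table holds the authors' own DESeq2 comparison (mean counts, log2 fold changes and p-values) and was not used.

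Expected counts were rounded, genes with a total below 10 were removed (2054 of 16907, holding 0.00447% of the counts), and libraries were scaled with TMM factors (0.979 to 1.02). The test was edgeR's quasi-likelihood F test (two-sided, version 4.0.16 in R 4.3.3) in a model with terms for group and replicate number (the block). Adjustment was by Benjamini-Hochberg over all genes tested. Standard errors and 95% intervals come from the F statistic, and log2 ratios within pairs use a prior count of 2. Intervals of single genes are not adjusted for multiple testing. The test was checked on simulated counts first.

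The study pairs treated and control samples of a replicate. Deviations from the group means correlated between same-numbered libraries by 0.69, 0.53 and 0.33 over 12373 genes, which are not independent replicates. Between libraries of different numbers the correlations were at most 0.054. Deviations of a gene cancel out within its group, so positive same-number values push these others down. The contrast is therefore no separate evidence of pairing. Libraries of a group differed by more than counting noise.

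Alternatives were other scaling factors, filters and tests (DESeq2 1.42.0), fits without the block, leaving out each replicate pair, and other gene lengths, of which the length of the canonical transcript was chosen after seeing the data. The members and gene lists were chosen with earlier results of these data known. Named genes were the members, OGT, up to 4 called genes of each list with a mean of at least 1 CPM, genes sharing exonic bases with a member, and the 3 genes most like the called members with the highest and lowest log2 fold change. Some genes that this rule or the lists include are not reported here. Coordinates and lengths are from GENCODE 44 (hg38), which may differ from the gene models behind the counts. Protein sequences were not analysed here.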

Additional observations from a re-analysis of the deposited data

How the results depend on the processing

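Leaving out the replicate block moved the counts of calls most. Over all genes, 3766 were called in the fit reported, 2415 by DESeq2 with the block, 130 by edgeR without the block, 849 by DESeq2 without the block, and 1803 to 3439 when a replicate pair was left out. Of the members, 3 were called in the fit reported, 1 (TIMP3) without the replicate block in edgeR and 1 (TIMP3) in DESeq2. With a pair left out the count stayed at 3, but without replicate 3 MMP3 stood in place of MMP2. MMP3 passed the filter on low counts only through siOGT, so of the 3 only MMP1 and TIMP3 held whichever pair was left out. Of the 55 genes of the other lists, 20 were called in the fit reported, 0 by edgeR without the block (11 at an unadjusted p under 0.05), 4 by DESeq2 without the block, and 13 to 18 with a pair left out. The OGT call was kept under all 10 alternatives. With a pair left out, the sign reversed for MMP15 (log2 fold changes -0.075 to 0.046, above 0 without replicate 1), TIMP1 (-0.126 to 0.021, above 0 without replicate 2) and TIMP2 (-0.014 to 0.057, below 0 without replicate 2), none of them called. With the longest transcript as length, 6 of 10 members kept their place in the order of levels, and 8 with the canonical transcript. Causes were not tested. With 3 pairs and a gene as scarce as MMP3, a few counts decide the call, and it had no value under the stricter filter and no adjusted p in DESeq2.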

Other observations

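The AP-1 and ETS factors, transcription factors that bind promoters of several MMP genes, had 9 members tested, of which 4 rose and 0 fell, beside 12.7% of all genes called higher. FOSL1, a subunit of AP-1, was the most abundant of those called, with 682, 577 and 672 CPM in siControl and 1022, 675 and 1031 CPM in siOGT. Its log2 fold change was 0.48 (SE 0.078, adjusted p = 2.850e-04, edgeR), higher in 3 of 3 pairs, although the groups overlapped. JUNB (0.41), ETS2 (0.33) and ETS1 (0.22, adjusted p = 0.0247, edgeR) were also higher in siOGT. Without replicate 1 these 3 were not called (adjusted p = 0.275 for JUNB, 0.246 for ETS2 and 0.328 for ETS1), and ETS1 was not called without replicate 2 either (adjusted p = 0.0848). FOSL1 kept its call with any pair left out and lost it in edgeR without the block (adjusted p = 0.148).

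Of the synapsin genes that hold TIMP genes, 2 were tested and 0 were called by edgeR. In the hepatocyte list CYP2E1 rose by 0.74 on the log2 scale, from 4.08 to 6.88 CPM on average, and in the endothelial list VWF fell by 0.93, from 2.60 to 1.35 CPM. The endothelial list summed to 3.29 to 7.86 CPM in siControl and 3.00 to 5.87 CPM in siOGT, and the bile duct list, mostly SOX9, to 88.7 to 128 CPM and 91.4 to 129 CPM with 0 genes called.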
